A study of Mus musculus with 4 samples.

Results

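Chromatin accessibility in Cxcr3-/- and wild-type (WT) common myeloid progenitors and granulocyte-monocyte progenitors (CMP/GMP) was compared from 1 Omni-ATAC-seq library of each genotype. ATAC-seq uses a transposase that cuts open DNA, so the number of sequenced fragments (tags) stacked on a site measures how accessible it is. All intervals called accessible on chromosomes 1 to 19 and X in either library were used, which merged into 84812 regions of the 120423 found over the 4 libraries of the series. The other 2 libraries, WT and Cxcr3-/- monocytes, are set beside the progenitors where a value calls for it, and that pair comprised 99041 regions. All 4 libraries came from bone marrow-derived cells of the C57BL/6J strain, and the groups differ in genotype and cell type alone by their labels. The labels give hepatocellular carcinoma as disease state for every library, whereas the design text says that the cells for ATAC-seq were cultured in vitro and describes treatment with diethylnitrosamine and tetrachloromethane for the mice of the wider study. The age of the mice, the number pooled, the culture conditions, the part of Cxcr3 that was deleted and the way the allele was built are not known from the labels or the design text. With 1 library a side nothing replicates a difference and no p-value can be given, and every interval printed below is a 95% Clopper-Pearson interval of the split of tags between the libraries, which covers counting error only.

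CXCR3 is a G protein-coupled chemokine receptor for the interferon-induced ligands Cxcl9 and Cxcl10, and it signals through Gi proteins to phosphoinositide 3-kinase, Rac and calcium. It is best known on activated T cells and NK cells and is also found on subsets of myeloid cells. CMP and GMP are the bone marrow stages at which blood formation narrows to granulocytes and monocytes. That step is governed by PU.1 (Spi1), the C/EBP factors, Runx1, Gfi1 and Irf8, with PU.1 and Irf8 favouring monocytes and Gfi1 and Cebpe favouring granulocytes. Klf, Nr4a, Egr and Maf factors act later or in response to signals, and several of them are immediate-early genes.

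The promoter sequences of 6 genes on which the results below turn are printed from RefSeq (GRCm38.p6, the mm10 assembly), 250 bases before the annotated transcript start, 5′ to 3′ on the strand of the gene. Cxcr3 is the targeted gene (chrX:101734148-101734397, minus strand). Pgk1, the glycolytic enzyme phosphoglycerate kinase, led the loci with at least 300 tags (chrX:106186850-106187099, plus strand). Nr4a3, an immediate-early nuclear receptor, had a start region called in the Cxcr3-/- library alone (chr4:48045055-48045304, plus strand), and Klf6, a zinc finger factor, had a start region with a higher pileup there (chr13:5861239-5861488, plus strand). Elane (neutrophil elastase, chr10:79886062-79886311, plus strand) and Mpo (myeloperoxidase, chr11:87793534-87793783, plus strand) are primary granule genes whose loci lay on opposite sides of 0. Capitals mark matches, on either strand, to the letters of a PU.1 site (GAGGAAGT, or a longer consensus of it with 1 more base on either side) or to TGACGT, the core of the cyclic AMP response element TGACGTCA.
Cxcr3: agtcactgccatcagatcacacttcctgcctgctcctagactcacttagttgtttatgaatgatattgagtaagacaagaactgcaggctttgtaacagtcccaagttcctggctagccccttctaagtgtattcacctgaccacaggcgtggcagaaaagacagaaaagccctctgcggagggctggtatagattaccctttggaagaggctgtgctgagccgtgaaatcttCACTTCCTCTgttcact
Pgk1: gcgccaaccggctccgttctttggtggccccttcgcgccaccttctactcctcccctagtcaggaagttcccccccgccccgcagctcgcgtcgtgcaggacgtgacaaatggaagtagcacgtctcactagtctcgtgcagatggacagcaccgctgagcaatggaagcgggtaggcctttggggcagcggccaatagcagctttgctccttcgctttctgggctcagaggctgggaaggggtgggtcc
Nr4a3: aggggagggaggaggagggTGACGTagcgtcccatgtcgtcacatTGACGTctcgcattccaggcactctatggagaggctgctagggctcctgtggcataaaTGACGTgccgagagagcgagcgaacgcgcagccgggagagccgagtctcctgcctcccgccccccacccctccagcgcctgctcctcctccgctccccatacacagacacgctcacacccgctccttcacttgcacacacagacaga
Klf6: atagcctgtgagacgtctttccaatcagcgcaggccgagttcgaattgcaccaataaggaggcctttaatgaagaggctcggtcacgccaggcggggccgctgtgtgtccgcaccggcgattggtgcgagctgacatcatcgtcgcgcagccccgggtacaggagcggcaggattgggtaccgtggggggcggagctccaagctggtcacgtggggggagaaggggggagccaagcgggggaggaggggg
Elane: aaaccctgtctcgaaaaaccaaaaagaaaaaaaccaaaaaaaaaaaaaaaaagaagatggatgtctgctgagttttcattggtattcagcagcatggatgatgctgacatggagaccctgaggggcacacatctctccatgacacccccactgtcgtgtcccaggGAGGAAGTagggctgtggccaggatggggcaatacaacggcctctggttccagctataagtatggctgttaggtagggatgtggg
Mpo: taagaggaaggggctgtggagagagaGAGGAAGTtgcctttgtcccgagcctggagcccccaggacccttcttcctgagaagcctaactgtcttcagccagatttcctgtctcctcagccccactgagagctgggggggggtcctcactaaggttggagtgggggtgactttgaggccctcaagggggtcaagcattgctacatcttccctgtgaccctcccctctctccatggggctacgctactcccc

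In these windows Cxcr3 held the longer PU.1 letters 17 bases before the start, on the other strand. Nr4a3 held TGACGT at 231, 205 and 147 bases before the start. Elane and Mpo both held GAGGAAGT, 85 and 224 bases before their starts, so these letters did not set them apart. Neither the PU.1 letters nor TGACGT were found in the Pgk1 and Klf6 windows. Of 32619 promoter windows of the same length, 2.46% held GAGGAAGT, 0.325% its longer form, 6.51% TGACGT and 1.56% TGACGTCA. Promoter windows inside regions called in both CMP/GMP libraries gave 9852 regions with a median log2 ratio, Cxcr3-/- over WT, of 0.05. The 299 of these regions with TGACGTCA had a median of 0.11 and lay above 0 in 63.5% of cases, against 57.7% of all 9852. The 1111 with TGACGT had a median of 0.08, and the 321 with GAGGAAGT 0.05. The looser C/EBP letters TTGCNNAA (851 regions, in 9.62% of promoters), the AP-1 letters TGANTCA (462, 6.78%), the RUNX letters TGTGGTT (385, 4.41%) and the IRF letters, GAAA repeated after any 2 bases (280, 2.99%), each had a median of 0.04, and the GATA letters AGATAA (594, 10.02%) had 0.02. The palindrome TTGCGCAA, a case of TTGCNNAA, was in 32 regions with a median of 0.09, and a CTCF consensus in 3. The ratio also moved with base composition, from a median of 0.00 in the fifth of promoter regions with the lowest GC content (median 48.2%) to 0.08 in the fifth with the highest (72.8%), and the part of GC content in the TGACGTCA value was not tested.

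The deposited lists held 69521 intervals for WT and 80171 for Cxcr3-/- CMP/GMP, with median summit pileups of 21 and 29 tags and backgrounds of 134.6 and 194.0 tags per 10 kb, so the Cxcr3-/- library was the deeper one. Pileups were scaled by factors of 0.826 and 1.355 from the regions called in all 4 libraries. In monocytes the order of interval numbers and factors was reversed, with 98257 intervals for WT and 78244 for Cxcr3-/- and factors of 1.075 and 0.846. Median summit pileup was 21 tags in both monocyte libraries. Their backgrounds were 95.6 and 97.2 tags per 10 kb, so pileup and background were not reversed. The stronger library, meaning the one with more intervals and the larger factor, thus had the other genotype there. The part of this in any opposite direction between the cell types below was not tested. A locus is a gene body with 10 kb on either side, and its value is the log2 ratio of the Cxcr3-/- tags to the number expected from the WT tags after this scaling and after removal of the trend with gene density described below. Only regions called in both libraries enter the sum, and a locus needs at least 100 tags over both libraries together. The cell label was checked against its markers, as scaled levels, the progenitors before the monocytes and WT before Cxcr3-/- in each. The Mpo locus gave 354, 302, 82.8 and 89.8, and its start region was called in both progenitor libraries and in neither monocyte library. Kit, the stem cell factor receptor, gave 171, 193, 74.4 and 54.4, and Csf1r, the macrophage colony-stimulating factor receptor, gave 226, 245, 566 and 415. Macrophage genes summed to 4550 and 4767 in the progenitors against 8219 and 7471 in the monocytes. Monocyte genes summed to 4601 and 5222 against 6720 and 5534, and primary granule and GMP genes to 4344 and 4559 against 3675 and 3443. These sums followed the labels, but members went both ways. Ccr2, a monocyte gene, gave 136, 135, 99.5 and 73.3, and Clec12a, of the primary granule list, 163, 260, 283 and 304. Stem and progenitor factor genes, at 8475, 9475, 9000 and 8994, did not separate the pairs. Of 25 hepatocyte genes 7 had 100 tags and 7 had no region in either progenitor library, Ttr and Cps1 among them, and of 30 T and NK cell genes Cd3e, Cd8a, Gzma, Gzmb and Ncr1 had none.

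Cxcr3 itself lies on chromosome X from 101731535 to 101734147. The region over its start, from 101733698 to 101734465, held 34 tags in the WT library and 84 in the Cxcr3-/- library, against 57 expected, a log2 ratio of 0.55 (−0.04 to 1.17). A second interval inside the gene, from 101733312 to 101733521, was called in the Cxcr3-/- library alone, with 25 tags. Tags in the 10 kb around the start region numbered 205 in WT and 422 in Cxcr3-/-, against 341 expected, a log2 ratio of 0.31. The gene start was therefore accessible in the library labelled Cxcr3-/-, and because the deleted part is not known here these regions check nothing about the genotype. In monocytes the same locus had 93 tags in WT and 51 in Cxcr3-/-, against 69 expected, with a log2 ratio of −0.44 (−0.96 to 0.07).

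The accessible landscape was largely shared. Of the 84812 regions, 59993 (70.7%) were called in both libraries, 6130 in WT alone and 18689 in Cxcr3-/- alone. Regions called in 1 library alone were weak, with a median pileup of 12 tags in WT and 17 in Cxcr3-/-. A pileup of 60 or more was reached by none of those called in WT alone and by 21 of those called in Cxcr3-/- alone. A monocyte library also had a call in 85.4% of the shared regions, 42.3% of those in WT alone and 51.4% of those in Cxcr3-/- alone. The best-ranked WT intervals with no partner, in Robo2, in Pard3 and 986166 bp from Nmbr, had 23 tags each, and each was called in both monocyte libraries. Their counterparts in Cxcr3-/-, in App, 22268 bp from Lrrc32 and at Nr4a3, had 59, 55 and 93 tags, and these too were called in both monocyte libraries.

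Locus values spread little beyond counting error. Over 13844 loci with a value the SD of the log2 ratio was 0.185, where counting error alone gives 0.180. Only regions called in both libraries enter these values. In the weakest 10% of such regions the SD was 0.359, below the counting SD of 0.572, and in the strongest 10% it was 0.203 against 0.197. The part of this filter in the closeness of 0.185 to 0.180 was not tested. In the 484 loci with 1000 tags or more the SD was 0.112 against a counting SD of 0.084. The monocyte pair, handled the same way, spread more at the same depth, with an SD of 0.162 against 0.080 over 602 loci. The Cxcr3-/- progenitor library was at least 1.3-fold above expectation in 312 loci (2.25%) and at least 1.3-fold below it in 359 (2.59%). With libraries scaled by their background tags and no trend removed, 1148 loci were higher and 126 lower. Against the main values that setting moved the log2 ratio of a locus by a median of 0.13, from −0.06 to 0.19 by locus, and 76.4% of loci then lay above 0. Of the 6530 loci below 0 in the main values 3276 lay above 0 under it, and 17 went the other way. The balance of the directions thus rests on the scaling, and all directions below are relative to the main scaling. The counting interval lay above 0 in 444 loci (3.21%) and below 0 in 371 (2.68%), and 7314 loci (52.8%) had a value above 0. In monocytes 5.29% of loci were at least 1.3-fold higher and 5.69% lower, with intervals above 0 in 7.93% and below 0 in 7.92%. By tags in 10 kb, 0.202% of progenitor loci were 1.3-fold higher and 0.985% lower, against 6.68% and 2.17% in monocytes. Among single regions averaging 30 tags or more, a 2-fold difference was seen in 24 (0.0909%) upward and 37 (0.14%) downward of 26413, and the corresponding shares in monocytes were 0.196% and 0.307%.

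**Figure D1:**
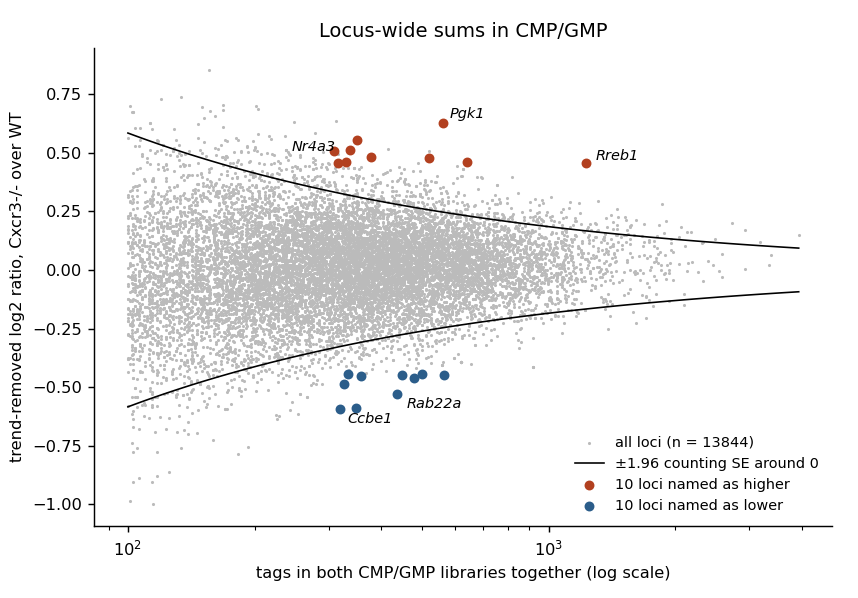
Trend-removed log2 ratio, Cxcr3-/- over WT, of each of 13844 gene loci in CMP/GMP (vertical axis) against the tags in both libraries together (horizontal axis, log scale), 1 point per locus and 1 library per genotype. The lines give 95% counting limits around 0, and the 10 named loci above (red) and below (blue) lie outside them, led by Pgk1 at 0.63 and Ccbe1 at −0.59.

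The ratio of summed tags followed gene density. It went from −0.16 on the log2 scale in regions with the fewest protein-coding genes in the surrounding 1 Mb to 0.09 in those with the most, relative to all regions. The same slope appeared in the tags of the 10 kb around each summit, from −0.14 to 0.08. In monocytes the slope ran the other way and was steeper, from 0.27 to −0.25. All ratios given per locus have the progenitor trend taken out, since a family that sits in gene-poor or gene-rich DNA would otherwise carry it. What sets the slope was not tested.

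**Figure D2:**
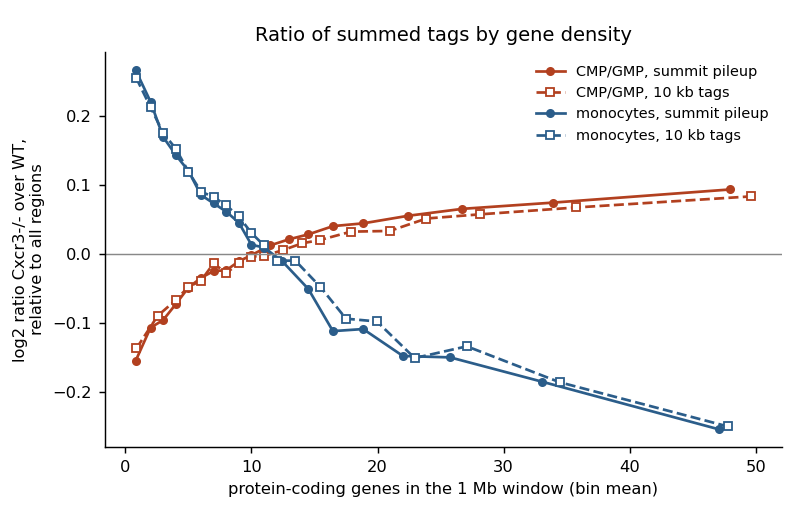
Log2 ratio of summed tags, Cxcr3-/- over WT, relative to all regions (vertical axis) against protein-coding genes in the 1 Mb window, as bin means (horizontal axis). CMP/GMP (red) climbs from −0.16 to 0.09 and monocytes (blue) descend from 0.27 to −0.25, with summit pileups as filled points and 10 kb tags as open squares.

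Klf, Nr4a, Egr and Maf factor genes stood highest of the 33 lists. Of 30 matched genes 29 had a value, 25 of them above 0 where 52.8% of all loci were, with a median log2 ratio of 0.14 against 0.01 over all loci. The counting interval lay above 0 in 6 of 29 and below 0 in none, beside 3.21% and 2.68% of all loci. Their 140 regions together held 6069 tags in WT and 10750 in Cxcr3-/-, against 9734 expected, a log2 ratio of 0.14 (0.10 to 0.19). By tags in the 10 kb around the same summits, a readout that shares tags with the pileup and whose windows overlap between neighbouring regions, 27 of 30 loci lay above 0 where 49.3% of all did. Removal of a further trend with pileup left the list 0.12 above all loci, and over the settings tried it stayed between 0.08 and 0.15 above. In monocytes 8 of 30 lay above 0, where 46.7% of all loci did. Marker genes of monocytes, a cell type the cultures could hold, summed to scaled levels of 4601 in WT and 5222 in Cxcr3-/- over 28 genes, with Ly6c1 alone at 0 in both, and those of macrophages to 4550 and 4767 over 34, with Clec4f, Spic and Timd4 at 0. Housekeeping genes rose by about the same share as the monocyte genes, from 5108 to 5806, and B cell genes went from 2839 to 2747. All these levels also count regions called in 1 library alone, which were more numerous in Cxcr3-/-. The part of monocytes or macrophages in the value of the Klf, Nr4a, Egr and Maf list was not tested. In such bulk libraries more cells with an open site and more cutting per cell cannot be told apart.

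Nr4a3 had the highest value of the list. Its locus (gene on chromosome 4, 48045078 to 48086447) held 104 tags in WT and 226 in Cxcr3-/-, against 164 expected, a log2 ratio of 0.46 (0.12 to 0.81) that ranged from 0.18 to 0.51 over the settings tried. Most of these tags came from a region 1619 bp before the start, from 48042693 to 48043686, with 88 in WT and 192 in Cxcr3-/-. The interval over the start itself, whose promoter with 3 TGACGT matches is printed above, is not in these sums because it was called in the Cxcr3-/- library alone, with 93 tags over a local background of 18.8. Equal accessibility would have put 59 tags there in WT. Among 503 WT intervals with a local background within 10% of that beside Nr4a3, the weakest listed one had 22 tags, which is below the 59 expected. The same held for the other best-ranked intervals with no partner, such as 33.7 expected against 9 near Nmbr and 37.1 against 10 in App. They were all picked for their strength, so this does not set Nr4a3 apart. In monocytes the start carried a call in either genotype, 75 tags in WT and 53 in Cxcr3-/-.

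Among the Klf factors, Klf6 had 340 tags in WT and 607 in Cxcr3-/-, against 501 expected, a log2 ratio of 0.28 (0.08 to 0.47). The surplus sat at the start (chromosome 13, 5860743 to 5861677), with 131 and 272 tags against 193 expected, while the region 13954 bp downstream had 68 and 105 against 100. The Klf6 value was 0.08 without regions near gene ends, and a region of 43 tags 2157 bp after the start was called in WT alone and one of 46 tags 8413 bp after it in Cxcr3-/- alone. Klf3, a repressor of the family, had 276 tags in WT and 536 in Cxcr3-/-, a log2 ratio of 0.27 (0.05 to 0.48), and 0.06 by 10 kb tags. Klf10, an early target of transforming growth factor beta, had 257 and 485, a log2 ratio of 0.24 (0.02 to 0.47). Klf9 gave 0.22 (−0.02 to 0.46) and Klf13 0.13 (−0.02 to 0.28), whereas Klf2, with 250 and 429 tags, gave 0.01 (−0.22 to 0.24).

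Zeb2, needed for the monocyte and dendritic lineages, had 292 tags in WT and 518 in Cxcr3-/-, a log2 ratio of 0.23 (0.02 to 0.44). Nfe2l2, the regulator of the oxidative stress response, had 363 and 664, a log2 ratio of 0.19 (0.00 to 0.38). Nr4a1, the factor of patrolling monocytes, had 286 and 538, with an interval that held 0 (0.14, −0.07 to 0.35). Of the members below 0, Nr4a2 was lowest with 194 and 269 tags (−0.16, −0.43 to 0.11), followed by Egr3 with 59 and 91 (−0.13, −0.62 to 0.37) and Atf3 at −0.08, and each interval held 0. Maf had too few tags for a value.

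**Figure D3:**
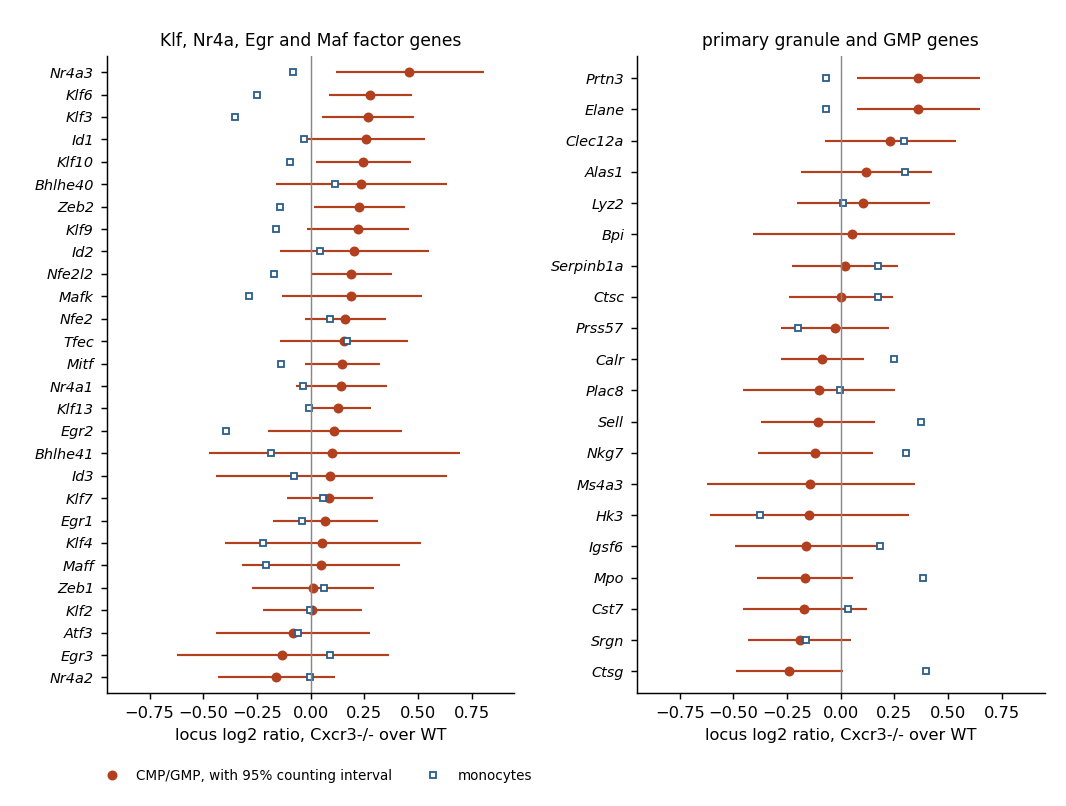
Trend-removed log2 ratio, Cxcr3-/- over WT, of each member of 2 gene lists (horizontal axis), with red points and bars for CMP/GMP and its 95% counting interval and open blue squares for monocytes, 1 library per genotype and cell type. Of the Klf, Nr4a, Egr and Maf genes, 28 of the 29 with a value being drawn, 25 lie above 0 in CMP/GMP, and of the primary granule genes 7 of 20 do, with Elane and Prtn3 at 0.36 sharing the same regions.

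The factors that define the granulocyte-monocyte step also lay above 0 for the most part. Housekeeping genes, described below, did so in about the same share and with about the same pooled log2 ratio. Of 28 C/EBP, PU.1 and Gfi1 factor genes 26 had a value, 20 of them above 0, with a median of 0.09 and 10012 tags against 9269 expected, a log2 ratio of 0.11 (0.06 to 0.16). The counting interval lay above 0 in 3 and below 0 in none, where it did so in 3.21% and 2.68% of all loci. By 10 kb tags 19 of 27 lay above 0, against 49.3% of all loci, and in monocytes 5 of 24 did, against 46.7%.

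Spi1, which encodes PU.1, had 293 tags in WT and 582 in Cxcr3-/-, against 498 expected, a log2 ratio of 0.23 (0.02 to 0.43). Within it, a region 12495 bp from the nearest transcription start had 64 and 140 tags against 109 expected, and its neighbour had 38 and 92 against 65. In monocytes Spi1 had 475 tags in WT and 260 in Cxcr3-/-, against 347 expected, a log2 ratio of −0.41 (−0.64 to −0.19). Runx1, a master factor of blood formation, had 553 and 1007 tags against 885 expected, a log2 ratio of 0.19 (0.04 to 0.34), and −0.24 (−0.37 to −0.10) in monocytes. These loci were thus above expectation in progenitors and below it in monocytes, each from its own library pair. The stronger library of the pair was Cxcr3-/- in progenitors and WT in monocytes.

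Gfi1, the repressor that favours granulocytes, had 80 tags in WT and 167 in Cxcr3-/-, against 133 expected, a log2 ratio of 0.33 (−0.07 to 0.73) that went to −0.00 with 50 kb flanks. Its higher region, from 107725287 to 107726471 on chromosome 5, had 36 and 85 tags, while its neighbour had 20 and 29 against 33 expected. Ets2 had 151 and 299 tags, a log2 ratio of 0.30 (0.01 to 0.59), but 0.03 by 10 kb tags. Myb, the progenitor factor, had 135 and 255 (0.28, −0.02 to 0.60), and Cebpe, the factor of late granule genes, had 115 and 231 (0.22, −0.11 to 0.56). Cebpa, which opens the GMP programme, stayed near expectation with 156 and 276 tags against 262 (0.07, −0.21 to 0.37). The lowest were Gfi1b, the erythroid and megakaryocytic relative of Gfi1, with 64 and 89 tags (−0.27, −0.75 to 0.21), and Irf8 with 63 and 90 (−0.20, −0.68 to 0.29), which lay at 0.24 by 10 kb tags.

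Stem and progenitor factor genes had a median of 0.09, with 20 of 28 above 0 and 10964 tags against 10307 expected (0.09, 0.04 to 0.13), and a median 0.02 above all loci with no trend removed. Etv6, an Ets repressor of stem cells with 32 regions, had 1051 tags in WT and 1883 in Cxcr3-/-, against 1671 expected, a log2 ratio of 0.17 (0.06 to 0.28). Ikzf1, the Ikaros gene, had 488 and 921 against 783 (0.23, 0.07 to 0.40). Msi2, an RNA-binding protein of stem cells, had 211 and 409 (0.24, 0.00 to 0.49) and Ikzf2 215 and 373 (0.24, −0.01 to 0.48), at 0.01 and 0.06 by 10 kb tags. Meis1 and Gata2, stem cell factors, stayed at expectation, with 584 tags in Cxcr3-/- against 585 expected for Meis1 and 93 against 93 for Gata2. Mecom, with 273 and 379 tags, gave −0.18 (−0.41 to 0.05). Ebf1, the B cell factor on this list, had 89 and 102 tags against 137 expected (−0.43, −0.85 to −0.00).

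Genes for progenitor surface molecules and cytokine receptors were spread to both sides, 16 of 29 above 0, with a median of 0.03. Cd34, the stem and progenitor antigen, had 218 tags in WT and 269 in Cxcr3-/-, against 344 expected, a log2 ratio of −0.35 (−0.62 to −0.09), and 0.41 (0.13 to 0.69) in monocytes. Il3ra, the interleukin-3 receptor alpha chain, rested on a single region with 123 and 151 tags (−0.40, −0.75 to −0.04), and Procr had 52 and 67 (−0.41, −0.95 to 0.14) but −0.00 by 10 kb tags. Above 0 were Cxcr4, the bone marrow homing receptor, with 110 and 219 (0.32, −0.01 to 0.67), and Ifngr2, a chain of the interferon gamma receptor, with 143 and 299 (0.32, 0.03 to 0.62). Kit (0.19, −0.12 to 0.50), Csf3r (0.15, −0.11 to 0.41), Flt3 (0.06, −0.12 to 0.24) and Csf1r (−0.01, −0.28 to 0.26) all had intervals that held 0.

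Primary granule and GMP genes, the defining genes of the cell label, did not share 1 direction. All 20 had a value, 7 above 0, with a median of −0.09 and 5393 tags against 5575 expected, a log2 ratio of −0.05 (−0.11 to 0.01). By 10 kb tags 10 of 20 lay above 0 and the median was 0.01, so the list median was below 0 by summit pileups only. Single genes stayed below 0 by 10 kb tags with intervals that left out 0. These were Mpo (−0.186, −0.290 to −0.081), Ctsg (−0.262, −0.395 to −0.128), Igsf6 (−0.204, −0.346 to −0.061) and Calr (−0.114, −0.211 to −0.018). Elane and Prtn3, which share regions, lay above 0 (0.215, 0.080 to 0.351). The share of all loci with a 10 kb interval off 0 is not given here, so these intervals do not set the genes apart from other loci. Elane and Prtn3, the adjacent elastase and proteinase 3 genes, share 6 regions with 150 tags in WT and 335 in Cxcr3-/-, against 261 expected, a log2 ratio of 0.36 (0.08 to 0.65). The largest of these regions, 1366 bp before Prtn3, had 49 and 117 tags, and the region over the Elane start had 25 and 56, against 85 and 44 expected. All 6 were above expectation, in a locus named for its high sum over them, and with 50 kb flanks the Elane value was 0.08.

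Mpo went the other way, with 272 tags in WT and 409 in Cxcr3-/-, against 459 expected, a log2 ratio of −0.17 (−0.39 to 0.06). Its start region was at expectation, with 48 and 82 tags against 81, and a region downstream of it, from 87806291 to 87806767, had 47 and 59 against 79. Ctsg, cathepsin G, had 227 and 332 against 392 expected (−0.24, −0.49 to 0.01) and the same side by 10 kb tags (−0.26). Srgn, the granule proteoglycan serglycin, had 244 and 359 (−0.19, −0.43 to 0.05), and −0.01 by 10 kb tags. Clec12a, an inhibitory lectin of myeloid cells, had 135 and 270 (0.23, −0.07 to 0.54). Later granule and maturation genes lay close to all loci, 19 of 29 above 0 with a median of 0.04. S100a9, a subunit of calprotectin, had 68 and 144 (0.31, −0.12 to 0.75), Fcnb 93 and 187 (0.29, −0.07 to 0.67) and Ncf1, a subunit of the phagocyte oxidase, 320 and 612 (0.21, 0.01 to 0.41). Padi4, with 45 and 62 tags (−0.28, −0.86 to 0.30), and the formyl peptide receptor Fpr1, with 150 and 210 (−0.26, −0.56 to 0.06), were lowest.

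**Figure D4:**
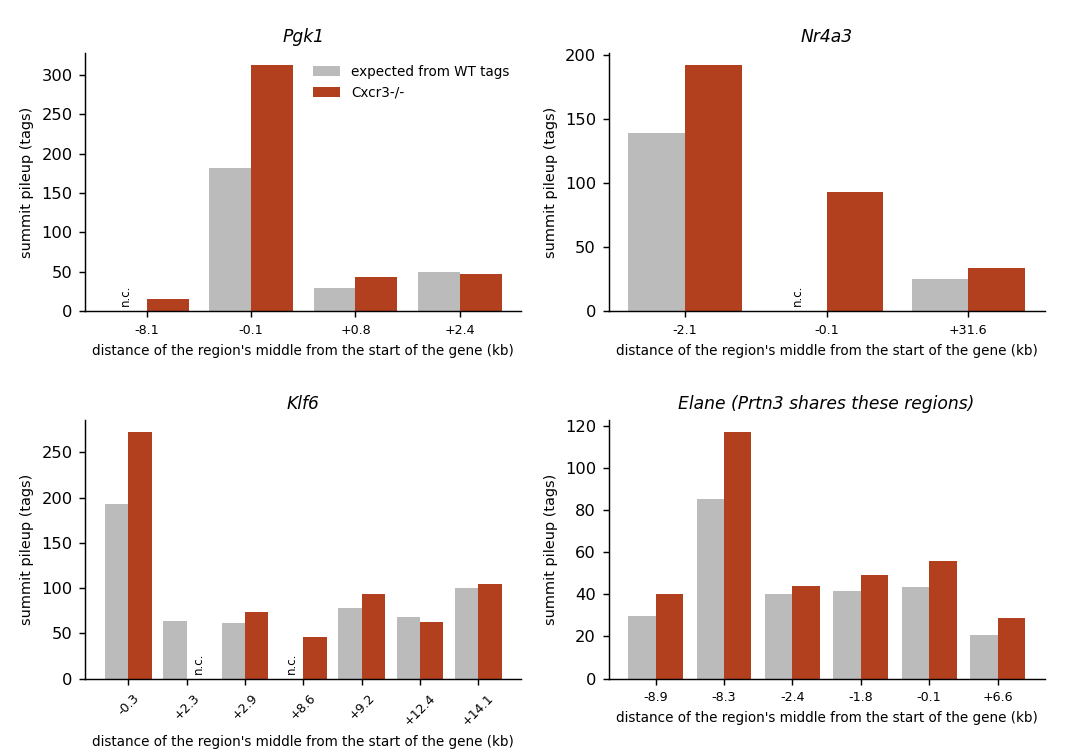
Summit pileup in tags (vertical axis) of each region of 4 loci by distance from the gene start in kb (horizontal axis), with the pileup expected from the WT library (grey) beside that of the Cxcr3-/- library (red), and n.c. where a library had no call. The Pgk1 start (312 against 181) and the Klf6 start (272 against 193) carry most of the surplus of their loci, the 6 shared Elane regions all lie above expectation, and the Nr4a3 start has a Cxcr3-/- call alone.

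Genes of later myeloid cells were mixed. Of 22 monocyte genes with a value 12 lay above 0 (median 0.05), of 25 macrophage genes 11 (−0.06) and of 19 dendritic cell genes 8 (−0.02). Lgals3, galectin-3, had 86 tags in WT and 193 in Cxcr3-/-, against 141 expected, a log2 ratio of 0.45 (0.08 to 0.84), and F13a1 had 58 and 110 (0.31, −0.16 to 0.80). Itgam had 135 and 208 (−0.16, −0.48 to 0.17) and Ctss 100 and 157 (−0.14, −0.51 to 0.24). Among macrophage genes the proteases Ctsb (133 and 264, 0.25, −0.06 to 0.56) and Ctsd (68 and 136, 0.23, −0.20 to 0.67) were highest, and the scavenger receptor Marco (87 and 113, −0.30, −0.72 to 0.12) and Cd63 (173 and 249, −0.27, −0.56 to 0.02) lowest. Xcr1 and Irf8 were lowest and Sirpa and Itgax highest of the dendritic cell genes. No interval of the 25 macrophage genes left out 0.

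Fc receptor and ITAM genes, which carry the tyrosine-based signalling of phagocytes, had 14 of 24 above 0 with a median of 0.07 and 6433 tags against 6075 expected (0.08, 0.02 to 0.14). The counting interval lay above 0 in 4 and below 0 in none, beside 3.21% and 2.68% of all loci. Syk, the kinase of this pathway, had 288 tags in WT and 560 in Cxcr3-/-, against 447 expected, a log2 ratio of 0.33 (0.12 to 0.54), with 0.27 by 10 kb tags. In monocytes Syk had 556 and 401 against 497, a log2 ratio of −0.31 (−0.50 to −0.12). The inhibitory receptor Sirpa had 256 and 512 (0.29, 0.07 to 0.51), Cd300lf 100 and 234 (0.43, 0.09 to 0.79) and Lilrb4a 39 and 84 (0.45, −0.11 to 1.04), while Fcgrt (85 and 119, −0.31, −0.73 to 0.10) and Pirb (160 and 233, −0.23, −0.53 to 0.07) were lowest. The Cd300lf value was 0.04 over the gene body alone. Toll-like and C-type lectin receptor genes had 16 of 26 above 0 (median 0.07) and extremes on both sides: Tlr3, the sensor of double-stranded RNA, had 71 and 76 tags against 115 expected (−0.60, −1.08 to −0.11) and Clec4a3 127 and 167 (−0.36, −0.71 to −0.02), against Clec7a, dectin-1, with 34 and 82 (0.50, −0.09 to 1.12) and Clec2d with 78 and 157 (0.24, −0.16 to 0.65).

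Of the 6 genes of the CXCR3 axis with a value 3 lay above 0, Cxcr3 among them, and the interval of each of the 6 held 0. The ligand gene Cxcl9 had 76 tags in WT and 142 in Cxcr3-/-, against 128 expected (0.15, −0.26 to 0.57), and Cxcl10 98 and 155 against 165 (−0.09, −0.46 to 0.29). Dpp4, the protease that trims these ligands, had 86 and 159 (0.22, −0.17 to 0.61), Pf4 45 and 64 (−0.24, −0.81 to 0.34) and the decoy receptor Ackr2 85 and 129 (−0.15, −0.55 to 0.27). Chemokine receptor genes, Cxcr3 and Cxcr4 highest among them, had 8 of 18 above 0, with a median of −0.04. The eotaxin receptor gene Ccr3 (60 and 71 tags, −0.51, −1.03 to 0.01) was lowest, Ccr2 (112 and 183, −0.04, −0.39 to 0.31) lay near expectation, and Cx3cr1, the fractalkine receptor, was at 0.25 (0.02 to 0.48) with 241 and 477.

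Signalling genes downstream of chemokine receptors had a median of 0.01 with 24 of 41 above 0, and 15688 tags against 15327 expected (0.03, −0.00 to 0.07). Gnai3, an inhibitory G protein subunit, had 133 and 309 tags against 228 expected (0.44, 0.14 to 0.74), and Grk6, a receptor kinase, 159 and 346 against 272 (0.35, 0.07 to 0.63), but by 10 kb tags these were 0.12 and 0.05. Gnai2, the main Gi subunit of leukocytes, had 413 and 705 tags against 712 (−0.01, −0.19 to 0.17), and Elmo1, a Rac activator, 751 and 1221 against 1159 (0.08, −0.06 to 0.21). The lowest were Rgs1 (80 and 107, −0.26, −0.69 to 0.18) and Mapk3 (82 and 125, −0.19, −0.60 to 0.23). Of 24 CC and CXC chemokine genes 13 lay above 0 (median 0.02) and no interval left out 0, with Cxcl17 (89 and 185, 0.28) and Cxcl15 (46 and 89, 0.20) highest and Cxcl12 (67 and 79, −0.36) and Ccl4 (154 and 220, −0.25) lowest.

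Other immune groups gave medians between −0.03 and 0.03. Interferon response genes had 17 of 36 above 0, with Dhx58 (78 and 173 tags, 0.36, −0.04 to 0.76) and Trim25 (164 and 332, 0.32, 0.05 to 0.60) highest and Gbp2 (131 and 171, −0.32, −0.66 to 0.02) and Irf7 (103 and 147, −0.29, −0.66 to 0.09) lowest. Inflammatory cytokine and NF-kB genes had 21 of 37 above 0 and no interval that left out 0, the ends being Ptgs2 at 0.24 and Icam1 at 0.17 against Casp1 at −0.26 and Nlrp3 at −0.24. Genes for MHC molecules and peptide loading had 16 of 31 above 0, again with no interval off 0, from Erap1 and Psmb9 at 0.29 to H2-K1, a class I heavy chain, at −0.34 and H2-DMb1 at −0.20. Checkpoint and suppression genes had 15 of 26 above 0. Havcr2, the Tim-3 gene, had 213 and 276 tags against 355 expected (−0.36, −0.63 to −0.10) and Pvr 47 and 60 (−0.43, −1.01 to 0.15), whereas Lilrb4a and Vtcn1 (35 and 74, 0.39, −0.21 to 1.01) were highest.

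Angiogenesis and Notch genes had 19 of 33 above 0, from Vegfa (72 and 161 tags, 0.39, −0.02 to 0.81) and Mmp14 (123 and 257, 0.29, −0.03 to 0.61) to Ccn1 (48 and 52, −0.58, −1.17 to 0.02) and Vegfc (62 and 74, −0.40, −0.91 to 0.11). Integrin and focal adhesion genes had 13 of 32 above 0, from Itgax at 0.27 and Parvg at 0.25 to Itgav at −0.23 and Itgb7 at −0.18, with no interval off 0. Lysosome genes had 21 of 34 above 0, with Ctsb and Npc1 (0.23) highest and Man2b1 (195 and 277, −0.28, −0.55 to −0.01) and Cd63 lowest.

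Groups of widely expressed genes lay above all loci by small amounts. Cell cycle and DNA replication genes had 28 of 41 above 0 and 11966 tags against 11274 expected (0.09, 0.04 to 0.13), with Ccnb2, cyclin B2, at 37 and 92 tags (0.60, 0.04 to 1.19), Top2a at 46 and 104 (0.40, −0.12 to 0.93) and Cdk4 at 236 and 497 (0.30, 0.07 to 0.53). The lowest were Ccne1 with 143 and 200 tags (−0.21, −0.53 to 0.11) and Plk1 with 57 and 91 (−0.06, −0.55 to 0.45). Cytosolic ribosomal protein genes had 40 of 61 above 0 (0.06, 0.02 to 0.10), from Rpl4 (71 and 166, 0.51) and Rpl13 (75 and 174, 0.45) to Rpl31 (76 and 99, −0.34) and Rpl8 (82 and 115, −0.29). Chromatin and DNA methylation genes had 25 of 38 above 0 and no interval off 0, between Kdm5c at 0.25 and Smarca4 at 0.23 and Sirt1 at −0.29 and Rad21 at −0.25. Housekeeping genes had 19 of 25 above 0 (0.11, 0.05 to 0.16), with Pgk1 at 0.63 highest and Ldha at −0.17 and Emc7 at −0.06 lowest. Housekeeping genes thus lay about as far above all loci as the stem cell factors did, 0.06 and 0.08 by their medians. Their share above 0 and pooled log2 ratio were close to those of the C/EBP, PU.1 and Gfi1 factor genes. Regions near a transcription start had a summed log2 ratio of 0.04 (0.04 to 0.05) and those farther than 1 kb from any start −0.02 (−0.03 to −0.02), and the part of start regions in these list values was not tested.

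Genes of other lineages lay below all loci in part. B cell genes had 6 of 18 above 0 and a median of −0.13, with 2890 tags against 3011 expected (−0.06, −0.14 to 0.03). Rag1, a recombinase gene, had 158 tags in WT and 196 in Cxcr3-/-, against 253 expected (−0.37, −0.68 to −0.06), Cr2 181 and 218 (−0.39, −0.68 to −0.10) and Il7r, the receptor of lymphoid progenitors, 63 and 75 (−0.43, −0.93 to 0.08). Cd72 had 105 and 237 (0.39, 0.05 to 0.74), but −0.05 by 10 kb tags, and Bank1 230 and 401 (0.19, −0.04 to 0.43). Of the 21 B cell genes Pou2af1 alone had no region in either progenitor library, and the summed level was 2839 in WT and 2747 in Cxcr3-/-. The list median was 0.06 above all loci when regions near gene ends were left out. T and NK cell genes had 7 of 17 above 0 (median −0.07), from Cd5 (45 and 108, 0.49, −0.03 to 1.02) and Cd28 (39 and 73, 0.22, −0.36 to 0.82) to Cd4 (100 and 127, −0.45, −0.84 to −0.06) and Cd3d (61 and 80, −0.38, −0.88 to 0.13). By 10 kb tags Cd5 was at −0.008 and Cd4 at −0.015, with Cd28 at 0.135 and Cd3d at −0.296.

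Megakaryocyte genes had 5 of 17 above 0 (median −0.06), with Selp at 0.21 and Nfe2 at 0.16 highest and Tubb1, the platelet tubulin gene (118 and 144, −0.42, −0.78 to −0.05), and Gp1ba (53 and 75, −0.29, −0.82 to 0.24) lowest. Erythroid genes had 7 of 12 above 0 (0.00), from Car2 at 0.19 to Ank1 (135 and 172, −0.37, −0.70 to −0.04) and Aqp1 at −0.19. By 10 kb tags Tubb1 was at −0.021 and Ank1 at −0.030. Mast cell, basophil and eosinophil genes had 9 of 16 above 0 (0.03), from Il1rl1 at 0.31 and Kit at 0.19 to Ccr3 at −0.51 and Il4 at −0.19. Stromal and endothelial genes had 5 of 14 above 0 (−0.04), from Pdgfra at 0.20 and Pecam1 at 0.14 to Cxcl12 at −0.36 and Col1a1 at −0.32. By 10 kb tags Pdgfra (−0.041), Pecam1 (−0.164), Cxcl12 (0.115) and Col1a1 (0.165) each lay on the other side of 0. Hepatocyte genes had 3 of 7 above 0 (−0.05), from Apoa2 at 0.21 and Trf at 0.06 to Fgg at −0.30 and Hnf4a at −0.27. Whether the share of lymphoid or megakaryocytic cells differed between the cultures was not tested.

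**Figure D5:**
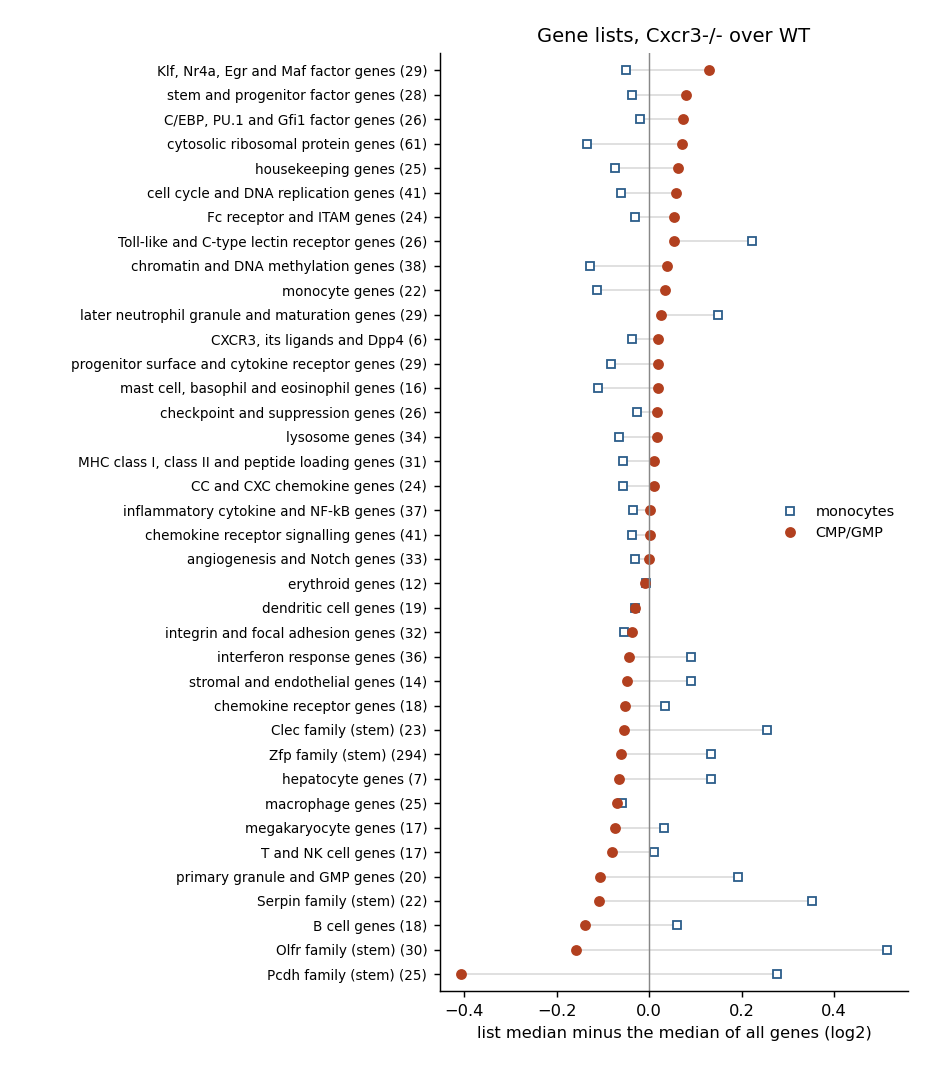
Median locus log2 ratio of each gene list or symbol family minus the median of all loci (horizontal axis), with the number of genes with a CMP/GMP value in brackets, red points for CMP/GMP and open blue squares for monocytes, 1 library per genotype and cell type. The Klf, Nr4a, Egr and Maf list is highest in CMP/GMP at 0.13 and the Pcdh family lowest at −0.41 (0.28 in monocytes, where the Olfr family stands at 0.51).

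Families were also taken by symbol stem over the whole annotation, and those named here were picked after their values were seen. The protocadherin stem (Pcdh) takes clustered and other protocadherins, which are cell adhesion molecules. It had 1 of 25 genes with a value above 0 and 19 at least 1.3-fold lower, where 2.59% of all loci were, but genes of a cluster share regions. Counted once, the 32 regions of the stem held 794 tags in WT and 1098 in Cxcr3-/-, against 1266 expected, a log2 ratio of −0.20 (−0.34 to −0.07). Of 1110 olfactory receptor genes (Olfr), which are silent in blood, 30 had 100 tags, 6 of these above 0 and 7 at least 1.3-fold lower, with 2740 tags against 3052 expected (−0.16, −0.24 to −0.07) in 47 regions. By 10 kb tags 5 of 47 olfactory receptor loci lay above 0, against 49.3% of all loci. Serpin genes had 5 of 22 above 0 (−0.05, −0.12 to 0.03), and zinc finger genes of the Zfp stem had 119 of 294 above 0, with 16 at least 1.3-fold lower, 8 at least 1.3-fold higher and a pooled log2 ratio of −0.03 (−0.05 to −0.01). The Zfp share on the higher side was close to the 2.25% of all loci. In monocytes these 4 families lay above 0 in 23 of 25, 26 of 27, 24 of 25 and 172 of 269 loci, where 46.7% of all loci did. Rab genes, small GTPases of vesicle traffic, had 42 of 64 above 0 in CMP/GMP (0.04, 0.01 to 0.08), where 52.8% of all loci were.

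Of loci with at least 300 tags, those that share regions being counted once under the gene with the most tags, Pgk1 (chromosome X, 106187100 to 106203699) had the highest value. Its 3 shared regions held 158 tags in WT and 402 in Cxcr3-/-, against 260 expected, a log2 ratio of 0.63 (0.36 to 0.90). The region over the start, whose sequence is printed above, had 110 tags in WT and 312 in Cxcr3-/-, against 181 expected, a log2 ratio of 0.78 (0.47 to 1.11). A region 2266 bp into the gene had 30 and 47 tags against 49, so the surplus stood at the start. In the monocyte pair, which is a separate set of libraries, Pgk1 had 128 tags in WT and 192 in Cxcr3-/-, against 103 expected, a log2 ratio of 0.90 (0.57 to 1.23), with 97 and 169 at the start. Of 6183 loci with 300 tags or more in both cell types, Pgk1 was the 1 locus at least 1.3-fold higher in both, and none was at least 1.3-fold lower in both. Over all 12787 loci with a value in both cell types, 6 were that much higher in both and 8 that much lower in both. The mouse Pgk1 promoter is also a common component of the selection cassettes of targeting vectors. The labels do not describe the Cxcr3 allele, and its part in this value was not tested.

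The locus of Rreb1, a Ras-responsive zinc finger factor, rested on the most regions of the 10 highest. Its 17 shared regions (chromosome 13, 37778382 to 37952005) held 384 tags in WT and 844 in Cxcr3-/-, against 616 expected, a log2 ratio of 0.46 (0.28 to 0.63). Of these regions 15 lay above expectation, among them one of 37 and 96 tags from 37784257 and one of 38 and 92 from 37833460. Because the locus was picked for its high sum over these regions, that count adds no support to it. The value was 0.18 by 10 kb tags, and −0.33 (−0.51 to −0.16) in monocytes. The whole 1 Mb window that holds Rreb1, F13a1, Ly86 and Ssr1, with the Rreb1 regions included, had 1488 and 2823 tags against 2327 expected. Its log2 ratio was 0.28 (0.19 to 0.37). Other high loci included Shcbp1l (102 and 249 tags, 0.56), Kif5b (105 and 232, 0.51), a kinesin motor, Sult1a1 (89 and 220, 0.51), a sulfotransferase, Tspyl1 (114 and 264, 0.48), Naa15 (198 and 441, 0.46), which is counted for Ndufc1 (89 and 224, 0.64) and Rab33b too, and Mylip (101 and 215, 0.46). By 10 kb tags these 6 named loci lay between 0.02 for Shcbp1l and 0.29 for Kif5b.

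The 10 lowest loci held genes of varied function. Ccbe1, a secreted factor of lymphatic vessels, had 155 tags in WT and 165 in Cxcr3-/-, against 249 expected, a log2 ratio of −0.59 (−0.92 to −0.27). Cdh17, an intestinal cadherin, had 166 and 182 against 274 (−0.59, −0.90 to −0.28), with 1 region of 68 and 57 tags from 11814643 on chromosome 4. Rab22a had 206 and 231 against 333 (−0.53, −0.81 to −0.25). Adck1, a mitochondrial kinase-like protein, had 228 and 272 against 370 (−0.44, −0.70 to −0.19) and was as low by 10 kb tags (−0.48). The others were BC016579 (149 and 177, −0.49), which lay at 0.10 by 10 kb tags, Rnf125 (220 and 259, −0.46), the stress kinase gene Mapk8 (165 and 193, −0.45), Tspan13 (206 and 242, −0.45), Lig1, DNA ligase 1, with Zswim9 (250 and 313, −0.45) and Cluap1 (150 and 184, −0.44).

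Among single regions averaging 60 tags or more, none was 2-fold higher and 1 of 9605 (0.0104%) 2-fold lower, where monocytes had 8 (0.0646%) and 6 (0.0485%) of 12375. That region lay 22311 bp from Ly6c2, a monocyte surface antigen, on chromosome 15 from 75085475 to 75085850, with 92 tags in WT and 75 in Cxcr3-/-, against 158 expected (−1.07, −1.53 to −0.62), and 26 and 32 tags in the monocyte libraries. The Ly6c2 locus itself, with 63 and 111 tags, stayed at 0.04 (−0.42 to 0.51). Next lowest were the Cdh17 region (−0.98), one 2637 bp from Ang6 (65 and 60 tags, −0.86), one 29188 bp from Rpusd4 (138 and 128, −0.86) and one in D130040H23Rik (93 and 90, −0.78). The highest lay in Phf3 (41 and 115 tags against 64 expected, 0.86, 0.33 to 1.41), Rdm1 (39 and 120, 0.83), Pold3 (42 and 125, 0.82), Snx13 (40 and 107, 0.81) and at the Pgk1 start (0.78).

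In windows of 1 Mb the progenitor pair spread less than the monocyte pair. Over 1922 windows the SD was 0.104, with 1 window at least 1.3-fold higher and 10 at least 1.3-fold lower, where monocytes had an SD of 0.175 over 1914 windows with 51 and 12. The counting interval lay above 0 in 140 progenitor windows and below 0 in 199, 17.6% together, against 45.4% of monocyte windows. The highest held Phf3 and Ptp4a1 (chromosome 1, 30000001 to 31000000), with 242 and 504 tags against 375 expected (0.43, 0.20 to 0.65). The window of Jarid2, a Polycomb cofactor, and Dtnbp1 followed with 694 and 1305 (0.32, 0.18 to 0.45). The lowest had no protein-coding gene (chromosome 2, 98000001 to 99000000, −0.56, −0.74 to −0.38). The next held the beta-globin genes among olfactory receptors (chromosome 7, 103000001 to 104000000), with 191 and 239 tags against 332 (−0.48, −0.76 to −0.19), and 0.85 in monocytes. Chromosome sums lay between −0.03 for X (−0.05 to −0.02) and 0.03 for chromosome 15.

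Where a region was open in monocytes too, the ratio was higher. Regions called in both monocyte libraries had a summed log2 ratio of 0.02 (0.01 to 0.02), those called in 1 had −0.12 (−0.13 to −0.11) and those called in neither −0.10 (−0.11 to −0.09). These classes differ in strength, with median scaled pileups of 32.8, 18.4 and 17.3 tags, and the ratio moved with strength: the median log2 ratio was −0.22 in the weakest 10% of shared regions and 0.05 in the strongest. In regions of at least 30 tags the class medians were 0.04, −0.01 and 0.02. Over the 12787 loci with a value in both cell types, Spearman's rho between the progenitor and the monocyte ratios was −0.22, and −0.26 over the 6183 with 300 tags or more in both. With no trend removed in either cell type these were −0.34 and −0.41. The points share merged regions and neighbouring genes but no library, and no test is given. The stronger library was Cxcr3-/- in progenitors and WT in monocytes, and the part of this in rho was not tested. Among those 6183, Ndufc1 and Naa15, Cuta and Kifc5b, and Kif5b were among the loci at least 1.3-fold higher in progenitors and lower in monocytes, and Gpa33, Mgmt and Adck1 the reverse.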

How the data were processed

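Omni-ATAC-seq was made from WT and Cxcr3-/- CMP/GMP and monocytes, 1 library each. Reads were trimmed with Trim Galore, aligned with Bowtie2 to mm10 and handled with SAMtools, per the submitters' processing notes; the peak caller, duplicate handling and filters are not given in the sources used here. For each interval the authors deposited a score, a fold enrichment of the summit over background, −log10 p, −log10 q and a summit offset. Each deposited list was called on a single library, and its lowest −log10 q lies near a q of 0.05, so sites below that are missing.

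The summit pileup was recovered as the whole number of tags that gives both the deposited fold and the deposited −log10 p, within 0.002, for every interval but 1 in WT monocytes. The local background gave a second readout, whole tags in 10 kb. Intervals that overlap in any of the 4 lists formed 1 region, to which each library gave its highest pileup. These were scaled by the median ratio over 44591 regions called in all 4 libraries. The log2 ratio of summed tags in 19 bins of protein-coding genes per 1 Mb was subtracted. Regions within 10 kb of a gene body were summed over regions called in both libraries, with at least 100 tags. The assembly of the gene table is GRCm38.p6, the one of mm10. The steps were tested on simulated data. Python 3.11.15, NumPy 2.4.6, pandas 2.3.3, SciPy 1.17.1 and Matplotlib 3.10.9 were used.

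Of 1030 genes in 33 lists (918 distinct), 2 were not matched among 21627 genes (Cxcl11 and H2-Ea). Members and lists were chosen with earlier results of these data known. Genes named by rule were Cxcr3, up to 2 list members in each direction, the 10 loci of at least 300 tags in each direction with an interval off 0, the 5 regions of at least 60 tags in each direction and the 3 best lone intervals per library; other members were named after their values were seen, and a few genes that the rule or the lists hold are not reported here, though they count in the totals. No genome was used here, so motifs were searched in RefSeq promoter windows in place of regions, and the searches for TGACGT and TGACGTCA were added after the data were seen.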

Additional observations from a re-analysis of the deposited data

Results flagged for a closer look

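In the 8 loci reported here the log2 ratio of Cxcr3-/- to WT lay at least 1.3-fold above expectation in one cell type and at least 1.3-fold below it in the other, and these differences between cell types were not tested. The stronger library was Cxcr3-/- in progenitors and WT in monocytes. The differences are given as the CMP/GMP ratio minus the monocyte ratio. Ndufc1, a subunit gene of respiratory complex I, differed by 1.21, with 89 tags in WT and 224 in Cxcr3-/- progenitors and 247 and 139 in monocytes. Naa15, which encodes the scaffold of an N-terminal acetyltransferase and shares regions with Ndufc1, differed by 0.97. Kifc5b differed by 1.17 and Cuta by 1.14, and these neighbours on chromosome 17 also share regions, with 122 and 293 tags at Kifc5b in progenitors and 257 and 122 in monocytes. Kif5b differed by 1.00, with 105 and 232 tags in progenitors and 243 and 155 in monocytes.

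On the other side, Gpa33 differed by −0.87, with 152 and 189 tags in progenitors and 270 and 301 in monocytes. Mgmt, a DNA repair methyltransferase gene, differed by −0.88, with 158 and 178 tags in progenitors and 201 and 248 in monocytes. Adck1 differed by −0.83, with 228 and 272 tags in progenitors and 314 and 336 in monocytes.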

How the results depend on the processing

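No paired analysis was possible because each group has 1 library, and leaving out a replicate does not apply. The GC content alternative was not run, since no genome was used here. Merging only the 2 CMP/GMP lists and counting tags in 10 kb were added after the data were seen. Of 429 values of list medians under alternatives 414 moved by less than their error, as did 1630 of 1664 values of 139 named genes.

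The 312 loci at least 1.3-fold higher and 359 lower became 1148 and 126 when scaled by background tags with no trend removed, and 31 and 151 by 10 kb tags, and 71 were higher with 50 kb flanks. The 24 regions 2-fold higher and 37 lower became 53 and 16 by background scaling, 12 and 62 with no trend removed, and 0 and 0 by 10 kb tags, and 13 were higher when only regions of 30 tags entered. The direction split and the number of calls thus depend on scaling and readout, and the cause was not tested.

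List medians relative to all loci moved most when only regions over 1 kb from any gene end were summed, which leaves fewer genes: primary granule genes to 0.034, chemokine signalling to 0.056, angiogenesis to 0.097, lysosome to 0.094, B cell to 0.061, T and NK cell to 0.067, erythroid to −0.157, megakaryocyte to 0.079 and hepatocyte to −0.265 (2 genes). Primary granule genes were at 0.013 by 10 kb tags, angiogenesis at 0.079 and B cell at −0.024 with regions of 30 tags, megakaryocyte at 0.042 with 50 kb flanks, and over the gene body alone the CXCR3 axis was at 0.36 and hepatocyte at 0.209 (2 and 3 genes). Of the named genes at least 1.3-fold off expectation in the main values, 4 crossed 0 under a setting. By 10 kb tags BC016579 was at 0.099, Cd5 at −0.008 and Cd72 at −0.047, and Pvr was at 0.017 with 50 kb flanks. Other named genes, nearer 0 in the main values, also crossed it. Among them by 10 kb tags were Il1rl1 (0.314 to −0.169), Pecam1 (0.144 to −0.164), Cxcl12 (−0.362 to 0.115) and Col1a1 (−0.316 to 0.165). Depth limits single loci, whose spread over regions called in both libraries is close to counting error.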
